A study of Homo sapiens with 15 samples.

Results

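The lysyl oxidase gene family comprises LOX, LOXL1, LOXL2, LOXL3 and LOXL4, and its 5 genes were examined in ChIP-seq peak lists from MDA-MB-231 cells, a human breast cancer cell line. The members were chosen by their position: a peak was counted when it overlapped a gene or its flanks of 10 kb in hg19. This took 91 of 647617 deposited peaks. The windows were picked with earlier results of these data known, and 1 peak, that of H2A.Z at the start of LOXL1, was singled out by its score. All counts and scores below are therefore descriptions, without tests. The study concerned LOXL2, oxidised histone H3 and chromatin compaction. Of its 15 samples, 4 libraries with a peak list were used: H3K4ox (oxidised lysine 4 of histone H3, an antibody labelled handmade) in 2 replicates, the histone variant H2A.Z in 1 library and RUVBL2, an ATPase of chromatin remodelling complexes, in 1 library. Their labels name no knockdown, and all come from the same cell line. The other 11 samples (1 input, 8 RNA-seq and 2 ATAC-seq) were not analysed here, so expression of the 5 genes was not examined and cell identity was not checked.

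The genes lie on 5 chromosomes. LOX spans chr5:121398890-121413980 on the minus strand, LOXL1 chr15:74218789-74244478 on the plus strand, and LOXL2 chr8:23154410-23261722 on the minus strand. LOXL3 spans chr2:74759541-74782817 and LOXL4 chr10:100007443-100028007, both on the minus strand. LOXL2 is the longest at 107 kb, followed by LOXL1 (25.7 kb), LOXL3 (23.3 kb), LOXL4 (20.6 kb) and LOX (15.1 kb). With flanks, the windows add up to 291.9 kb.

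Lysyl oxidases are copper-dependent amine oxidases that turn lysine side chains into reactive aldehydes. Secreted into the extracellular matrix, they start the cross-linking of collagen and elastin that gives tissues their tensile strength. LOX and LOXL1 are made with a propeptide, which is cut from LOX by the protease BMP1, and LOXL1 is best known for elastic fibre upkeep. LOXL2, LOXL3 and LOXL4 carry scavenger receptor cysteine-rich domains in place of that propeptide. LOXL2 is also found in the nucleus, where it oxidises lysine 4 of histone H3, so that the family includes the enzyme that makes the H3K4ox mark. H2A.Z replaces H2A next to many transcription start sites and at enhancers, and RUVBL2 is a subunit of the INO80 and SRCAP type complexes that handle H2A.Z.

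The promoters of 3 members are shown to set the gene start next to the H2A.Z peak beside starts without such a peak. The LOXL1 peak began 64 bp after the annotated start in hg19, past the end of a promoter as cut here. The letters printed for LOXL1 thus lie beside the peak and do not describe the sequence under it. RefSeq promoters (GRCh38.p14, 250 bases before to 50 bases after a start) were matched for 4 of 5 members, with 7 entries. Each is printed along its gene's strand, with every CG in capitals. LOXL1 is chr15:73926212-73926511 (plus), LOX is the first of its 3 entries, chr5:122078210-122078509 (minus), and LOXL4 is chr10:98268145-98268444 (minus).
LOXL1: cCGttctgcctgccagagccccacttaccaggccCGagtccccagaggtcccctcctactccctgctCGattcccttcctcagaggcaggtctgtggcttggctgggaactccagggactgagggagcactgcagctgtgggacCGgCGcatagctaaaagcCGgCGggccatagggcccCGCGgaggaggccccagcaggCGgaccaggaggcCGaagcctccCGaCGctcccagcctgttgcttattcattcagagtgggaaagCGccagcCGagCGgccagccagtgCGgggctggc
LOX: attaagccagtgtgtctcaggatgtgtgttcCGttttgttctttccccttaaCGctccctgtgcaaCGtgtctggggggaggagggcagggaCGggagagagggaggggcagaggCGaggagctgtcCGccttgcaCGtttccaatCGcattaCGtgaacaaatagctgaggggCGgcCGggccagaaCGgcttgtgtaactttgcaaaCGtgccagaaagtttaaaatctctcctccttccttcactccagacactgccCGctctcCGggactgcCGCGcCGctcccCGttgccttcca
LOXL4: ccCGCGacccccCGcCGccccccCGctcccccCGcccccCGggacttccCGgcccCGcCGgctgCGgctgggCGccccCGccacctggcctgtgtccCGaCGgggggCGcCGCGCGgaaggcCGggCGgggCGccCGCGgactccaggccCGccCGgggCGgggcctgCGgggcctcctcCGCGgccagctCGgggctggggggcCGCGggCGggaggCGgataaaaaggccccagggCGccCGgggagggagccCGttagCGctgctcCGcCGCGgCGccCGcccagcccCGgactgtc
The LOXL1 promoter had a GC content of 67.3% and 17 CG pairs, the LOX promoter 58.0% and 19, and the LOXL4 promoter 85.3% and 45. The medians over 35116 RefSeq promoters were 58.7% and 14. LOXL4 stood apart among the members, since 99.8% of promoters had a lower GC content and 96.5% fewer CG pairs. Letters of 6 known motifs were searched on both strands: TATAAA (in 11.5% of all promoters), CCAAT (34.6%), GGGCGG (45.0%), ACGTG (21.4%), GCGTG (36.5%) and CACCTG (20.6%). The motif ACGTG overlaps its own reverse complement where the letters read CACGTG. The LOXL1 promoter held none of the 6. Entry 1 of LOXL3, not printed here, also held none, and LOXL3 had no H2A.Z peak in its window. A lack of these motifs was thus not particular to the start with the H2A.Z peak. Entry 2 of LOXL3 did hold some of the 6. LOX held ACGTG 4 times and CCAAT and GGGCGG 1 time each, and LOXL4 held GGGCGG 7 times and CACCTG 1 time. Entries 2 and 3 of LOX, not printed here, held a different set of the 6 motifs from the entry shown. These matches describe letters in these windows and not bound sites, and the builds of the promoters and of the peaks differ.

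H3K4ox replicate 1 had 38 peaks in the 5 windows and replicate 2 had 30, H2A.Z had 15 and RUVBL2 had 8. Most belonged to LOXL2, the longest gene, with 18, 17, 11 and 7 peaks in those lists. LOXL3 had 11 and 6 H3K4ox peaks, no H2A.Z peak and 1 RUVBL2 peak. LOXL1 had 5 and 4 H3K4ox peaks, 4 H2A.Z peaks and no RUVBL2 peak. LOXL4 had 3 and 2 H3K4ox peaks and LOX 1 and 1, with neither H2A.Z nor RUVBL2 in their windows. Within these windows H3K4ox was thus listed at every member, H2A.Z at LOXL1 and LOXL2 only, and RUVBL2 at LOXL2 and LOXL3 only. The H2A.Z peaks come from 1 library whose track name mentions no input. Plasmid or cDNA of LOXL1 or LOXL2 carried into that library could also give narrow peaks, over exons. Exon positions in hg19 were not used here and this was not tested, so the H2A.Z counts and scores below are peaks as listed and may not all stand for H2A.Z on the genes.

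**Figure D1:**
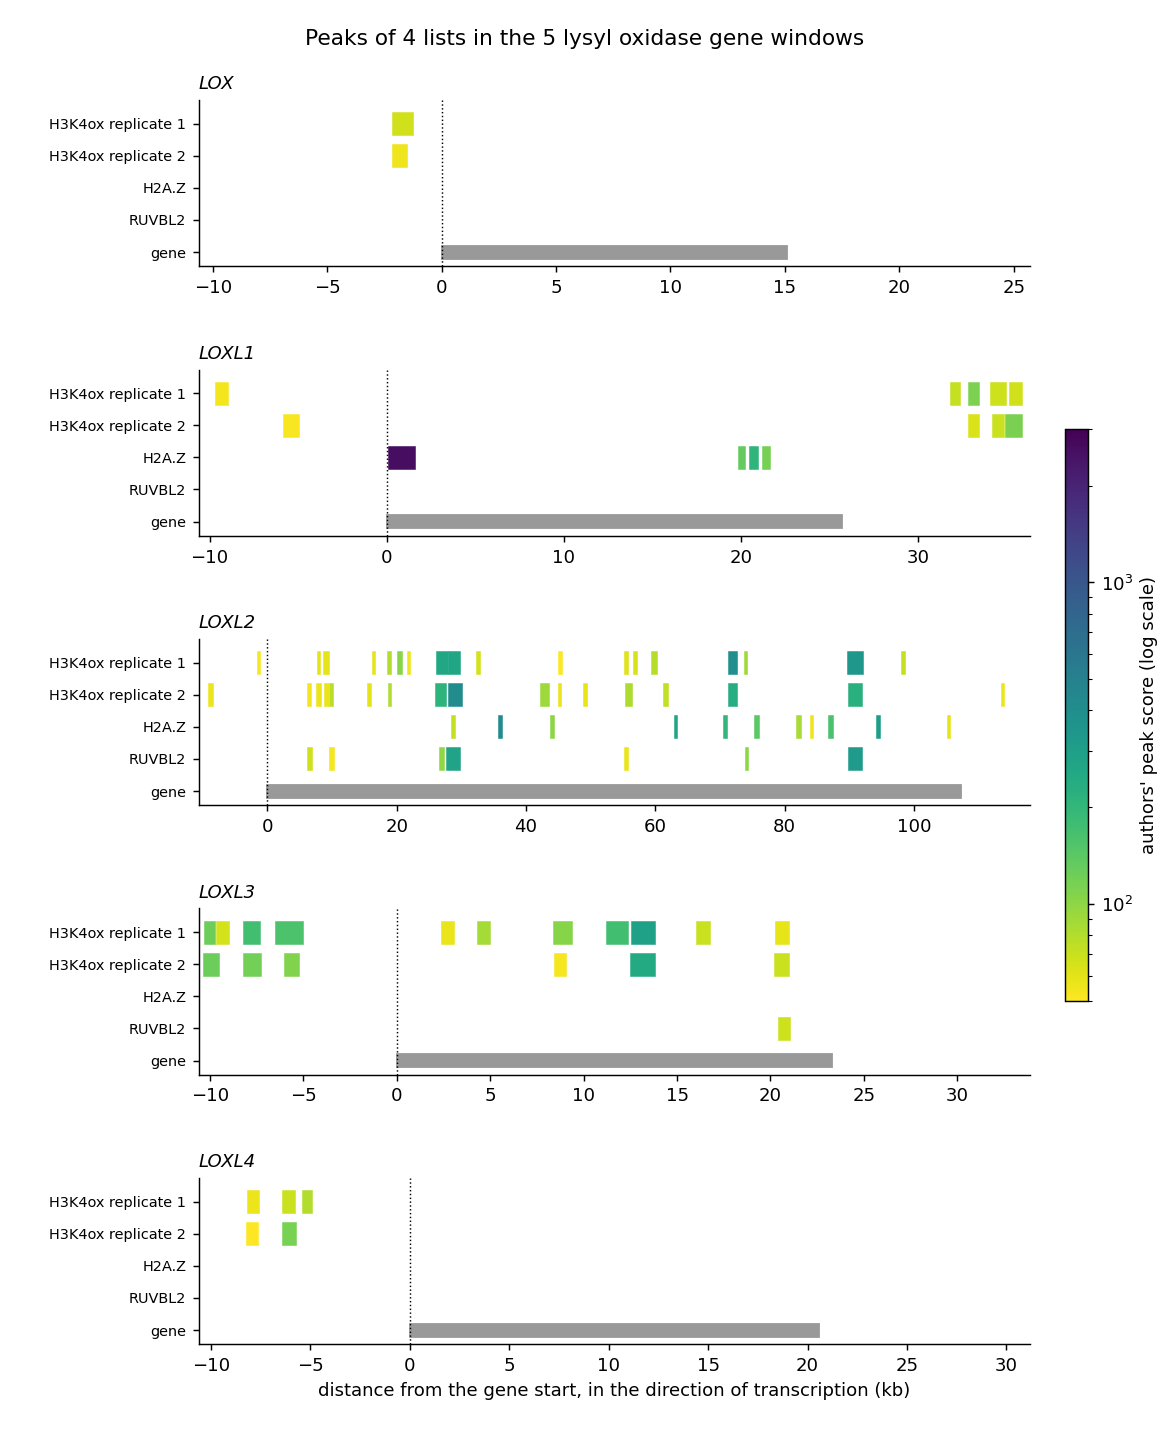
Peaks of the 4 lists (rows) in the window of each lysyl oxidase gene, against the distance from the gene start in kb along the direction of transcription. Colour gives the authors' peak score on a log scale, the grey bar is the gene and the dotted line its start. The H2A.Z peak of 2603.44 sits at the start of LOXL1, and the 11 H2A.Z peaks of LOXL2 lie inside the gene, 10 of them apart from peaks of the other lists.

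The counts were set beside the density of each whole list. The windows held 51.4 H2A.Z peaks per Mb, against 12.8 per Mb over the whole list, a ratio of 4.01. The ratio was 1.55 for H3K4ox replicate 1 (130 per Mb in the windows, 83.9 in the list), 1.25 for replicate 2 (103 and 82.1) and 0.752 for RUVBL2 (27.4 and 36.4). The H2A.Z ratio was the highest of these, but it came from LOXL1 and LOXL2 alone, as LOX, LOXL3 and LOXL4 had no H2A.Z peak. The windows were picked with earlier results of these data known, so nothing is read from the ratio. The H2A.Z density was 87.5 per Mb in the LOXL1 window, against 7.33 on its chromosome, and 86.4 in the LOXL2 window, against 10.0 on its chromosome. All 15 H2A.Z peaks and all 8 RUVBL2 peaks lay inside the genes, not in the flanks.

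Inside the genes, H3K4ox was listed in LOXL2 (17 peaks in replicate 1, 15 in replicate 2) and LOXL3 (7 and 3), and had 0 peaks in the bodies of LOX, LOXL1 and LOXL4 in both replicates. At the density of replicate 1 over its whole list, genes of these lengths would hold 1.27 (LOX), 2.15 (LOXL1) and 1.73 (LOXL4) peaks. With so few peaks due in a short gene, a count of 0 in 1 of them says little. LOXL2 had 1.89 and 1.7 times the list density of H3K4ox over its body, and LOXL3 had 3.59 and 1.57 times. The densities of the replicates were further apart at LOXL3, where replicate 1 listed 4 peaks in the gene that replicate 2 did not meet, the highest at 173.33. By overlap, the replicates matched less at LOXL2. Over its window 9 of 18 replicate 1 peaks and 9 of 17 replicate 2 peaks met the other replicate, against 7 of 11 and 6 of 6 at LOXL3.

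The score of each peak is the authors' own, on a scale not given in the sources used here, with a lowest value of 50 in every list. It ranks peaks within a list. A peak in the highest 10% of its list was called high, so that the background is 10% in each of the 4 lists. Among the family's peaks, 7 of 15 were high for H2A.Z (46.7%, exact 95% interval 21.3 to 73.4), 2 of 8 for RUVBL2 (25.0%, 3.19 to 65.1), 5 of 38 for H3K4ox replicate 1 (13.2%, 4.41 to 28.1) and 2 of 30 for replicate 2 (6.67%, 0.818 to 22.1). The H2A.Z count includes the LOXL1 start peak, which was singled out by its score, and without it 6 of 14 were high (42.9%). Since the windows were picked with the scores known, nothing is read from these shares. Intervals are Clopper-Pearson. They reflect counting error alone and take peaks as independent draws, which neighbours in 1 gene are not.

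**Figure D2:**
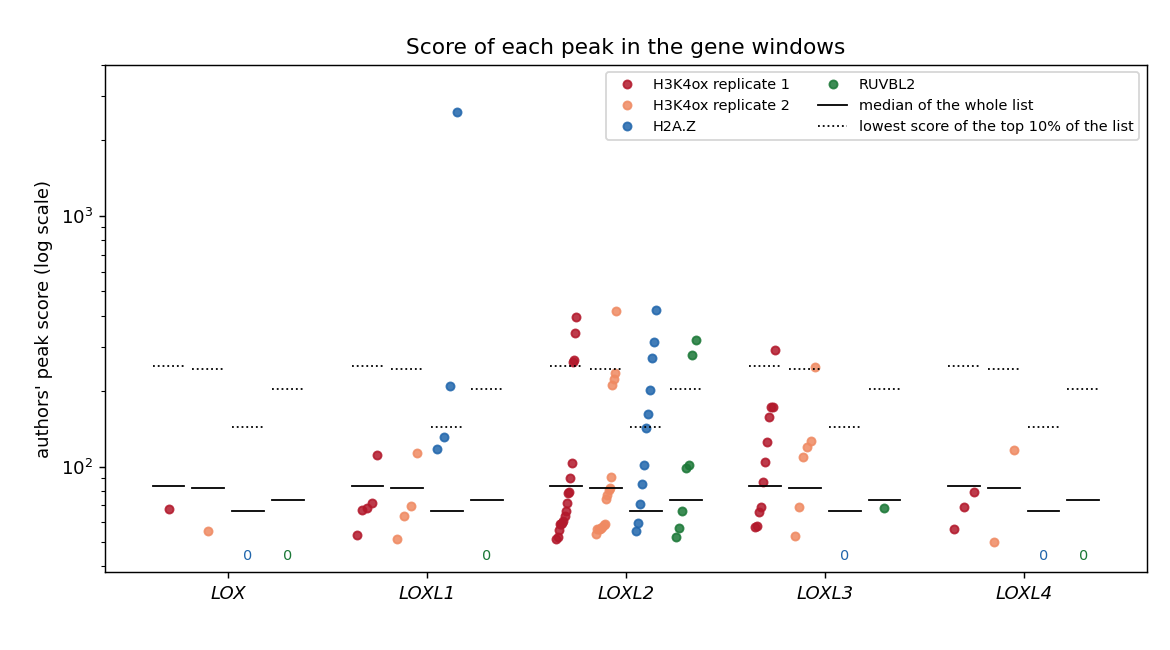
Authors' score of each peak (log scale) by gene and list, with solid lines at the median and dotted lines at the lowest score of the top 10% of each whole list, and a 0 where a list has no peak in the window. The LOXL1 H2A.Z peak stands at 2603.44 and every other peak is at or below 423.46.

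LOXL1 carried the highest peak of the family. The H2A.Z peak at chr15:74218853-74220377 had a score of 2603.44 and ranked 5 of 38584. It was 1525 bp wide, wider than 94.2% of the list, began 64 bp after the annotated start of the gene and ended 1588 bp after it. The next best of the 605 H2A.Z peaks on chromosome 15 scored 473.02, and the list median was 66.67. The peak ranked just above it, at chr5:9851-11946 near the first base of that chromosome, scored 2986.89. The peak just below it scored 2314.11. That peak, at chr5:126145718-126146426, lies near the rank 3 peak at chr5:126154276-126155342. All 4 peaks ranked above the LOXL1 peak met a RUVBL2 peak, against 33.4% of the list, and nothing is read from so few. The LOXL1 peak met no peak of any other list. Among the 12145 H2A.Z peaks that met no other list it ranked 1, and the next of them scored 757.82.

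**Figure D3:**
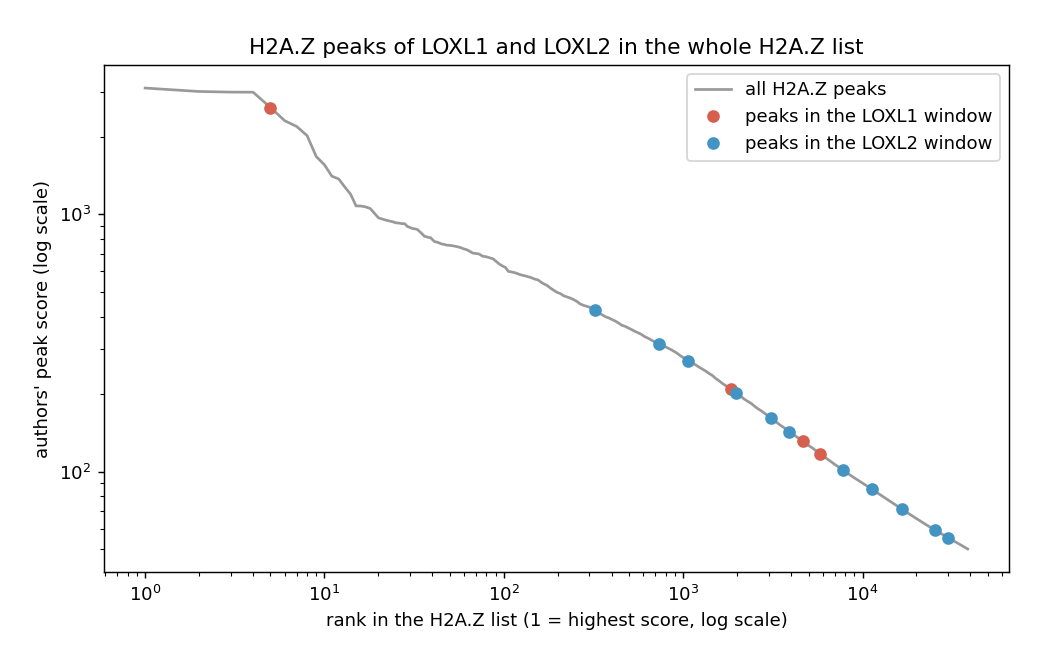
Authors' score of H2A.Z peaks against their rank in the list of 38584 (both axes log; 1 is the highest score), with the peaks in the LOXL1 and LOXL2 windows marked on the line of all peaks. The LOXL1 start peak is at rank 5 and the highest LOXL2 peak at rank 321.

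No peak of the other lists lay next to that peak. Its window was not short of H3K4ox, at 1.3 (replicate 1) and 1.07 (replicate 2) times the list density. RUVBL2 had 24.8 peaks per Mb on chromosome 15, and whether the gaps below are unusual was not tested. The nearest H3K4ox peaks were low, at 53.57 in replicate 1 and 51.64 in replicate 2, with gaps of 9005 and 5030 bp upstream. The nearest RUVBL2 peak lay 43839 bp downstream and scored 53.46. H2A.Z itself was listed nowhere else for 414 kb upstream of LOXL1. Within the gene, 3 further H2A.Z peaks followed 19816 to 21610 bp after the start, with scores of 131.01, 209.01 and 117.39 and gaps of 218 and 219 bp between them. As for the peak at the start, carry-over of LOXL1 plasmid or cDNA was not tested for these. In the annotation of GRCh38.p14 the lncRNA gene LOXL1-AS1 overlaps LOXL1, so the peak cannot be assigned to 1 of these genes by position alone. H3K4ox was shared by both replicates at LOXL1 in 2 regions, both beyond the 3′ end. The first, 32.8 to 33.4 kb after the start, scored 111.37 and 63.55 (mean 87.46 ± 33.8, SD, n = 2), and the second 68.51 and 113.65 at its highest peaks (91.08 ± 31.9).

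LOXL2, the histone H3 oxidase itself, held 11 H2A.Z peaks, 7 RUVBL2 peaks and 9 H3K4ox regions shared by both replicates, all of them inside the gene. The H2A.Z peaks scored between 55.24 and 423.46 with a median of 143.0, against 66.67 for the whole list. They were 414 to 747 bp wide (median 622, against 808 bp for the list) and lay 1.48 to 18.6 kb apart, from 28.4 kb after the start onwards. The highest, chr8:23225363-23226014, scored 423.46 and met no other list. Narrow, separate H2A.Z peaks thus ran along most of the gene and were absent around its start. Their place relative to exons, and with it plasmid or cDNA carry-over, was not tested. In GRCh38.p14 the lncRNA gene LOXL2-AS1 overlaps LOXL2 and R3HCC1 lies within a flank, so peaks here cannot be assigned to LOXL2 by position alone.

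The number of H2A.Z peaks in LOXL2 was set beside tiles of 100 kb, close to the gene's length. Of 30086 tiles, 0.545% held 11 or more H2A.Z peaks, and the median tile held 1. For peaks that met no other list, of which LOXL2 had 10, the share of tiles with as many was 0.0133%, or 4 tiles, none of which met LOXL2. The tile edges divide LOXL2, and the gene was picked with its peaks known, so these shares place it in the list and test nothing.

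The H2A.Z peaks listed in LOXL1 and LOXL2 seldom met the other lists, and the remaining members had no H2A.Z peak. In the 5 windows 1 of 15 met H3K4ox (6.67%, exact 95% interval 0.169 to 31.9), against 64.9% of the whole H2A.Z list. Likewise 1 of 15 met RUVBL2, against 33.4% of the list. The remaining 14 of 15 met no other list (93.3%, 68.1 to 99.8), against 31.5%. All 4 of LOXL1 and 10 of 11 of LOXL2 were of this kind, and 13 of 14 were (92.9%) without the LOXL1 start peak. The intervals take peaks as independent draws, which neighbours in 1 gene and 1 library are not, so they serve as description only. The 15 peaks had a median width of 549 bp, against 808 bp for the list. What part their width has in the overlap was not tested. Several lay close by without touching: the LOXL2 peak at chr8:23190567-23191278, with a score of 202.75, was 24 bp from a replicate 1 peak of 396.52 and 35 bp from a replicate 2 peak of 237.0. The median gap to the nearest peak of any other list was 2.07 kb in LOXL2 and 10.5 kb in LOXL1. The track names of the H3K4ox lists mention an input and those of H2A.Z and RUVBL2 do not, and what part this has in the difference between lists was not tested.

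**Figure D4:**
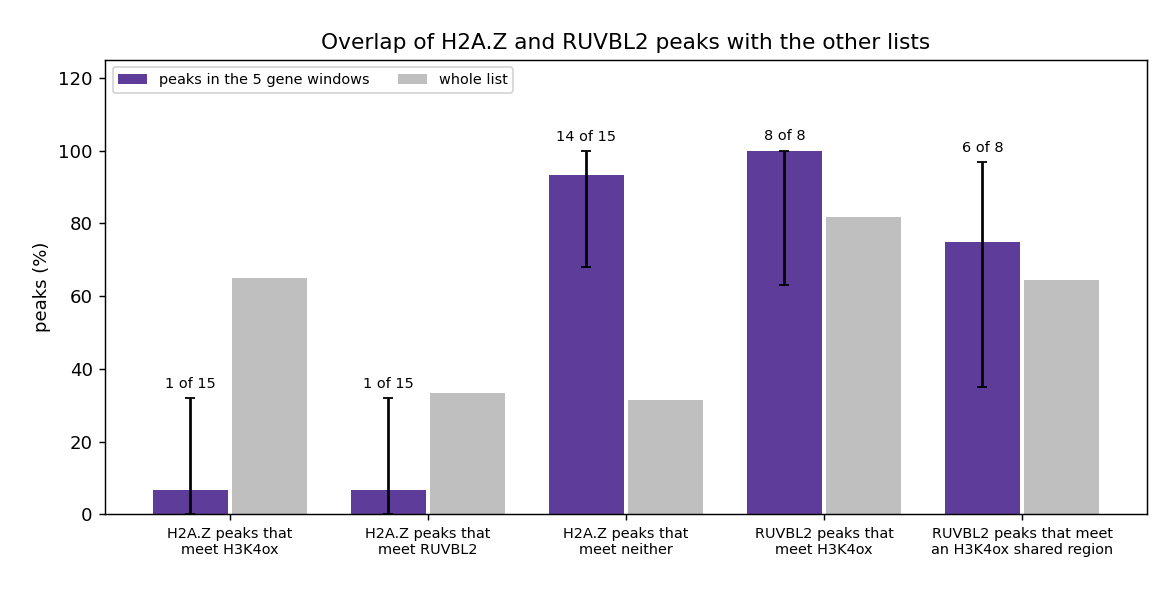
Share of H2A.Z and RUVBL2 peaks that overlap other lists by at least 1 bp, for peaks in the 5 lysyl oxidase windows (purple, with exact 95% intervals and counts) and for the whole list (grey). For H2A.Z, 1 of 15 peaks met H3K4ox against 64.9% of the list, while for RUVBL2 all 8 did against 81.9%.

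The RUVBL2 peaks, 7 in LOXL2 and 1 in LOXL3, lay on H3K4ox, as did most of the RUVBL2 list. All 8 met an H3K4ox peak of at least 1 replicate (exact 95% interval 63.1 to 100.0%), against 81.9% of the RUVBL2 list, and 6 of 8 met a region shared by both replicates, against 64.4%. Only 1 of 8 met H2A.Z, against 11.8%. At this number of peaks, nearly all in 1 gene, nothing is read from these 3 shares. The highest RUVBL2 peak, chr8:23169748-23171959 at 90.87 kb after the LOXL2 start, scored 320.36, and the H3K4ox peaks over it scored 339.89 and 224.28 (mean 282.1 ± 81.7, SD, n = 2). The other high RUVBL2 peak of LOXL2 scored 279.17, and the remaining 5 scored 52.56 to 101.73. The single LOXL3 peak, at 20.73 kb after the start, scored 68.61 over H3K4ox peaks of 57.79 and 69.26.

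H3K4ox regions shared by both replicates numbered 20: 9 at LOXL2, 6 at LOXL3, 2 each at LOXL1 and LOXL4, and 1 at LOX. In the windows, 22 of 38 replicate 1 peaks met replicate 2 (57.9%), against 67.8% of the whole list, and 21 of 30 replicate 2 peaks met replicate 1 (70.0%), against 70.2%. The exact 95% intervals of the window shares were 40.8 to 73.7 and 50.6 to 85.3. These intervals take peaks as independent draws, which neighbours in 1 gene are not, so they serve as description only. RUVBL2 met 6 of the 20 shared regions, against 38.5% of 162645 shared regions over the genome. H2A.Z met 1 of 20, against 10.3%.

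A joint site is a shared H3K4ox region that meets both RUVBL2 and H2A.Z. The family had 1 among its 20 shared regions, which is near the share of 6.21% among all shared regions. The joint site lay in LOXL2 at chr8:23231611-23233789, 27933 to 30111 bp after the start. H3K4ox scored 266.5 and 417.76 there (mean 342.1 ± 107, SD, n = 2), the highest mean of the 20 shared regions and the second largest SD. RUVBL2 scored 279.17 and H2A.Z 71.24. Both H3K4ox and RUVBL2 were thus among the highest of the family at this site, while its H2A.Z peak was among the 3 lowest of the 11 in LOXL2. The same RUVBL2 peak reached into the next shared region towards the gene start, which had H3K4ox at 261.1 and 212.47, a further RUVBL2 peak of 98.75 and no H2A.Z.

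Of the 4 shared H3K4ox regions with the next highest means, those at 90.87 and 26.91 kb after the LOXL2 start met RUVBL2, as given above, and 2 met no second mark. In LOXL2, the region at 71.92 kb after the start scored 396.52 and 237.0 (mean 316.8 ± 113, SD, n = 2) and met neither RUVBL2 nor H2A.Z. In LOXL3, a region at 13.16 kb after the start scored 292.33 and 250.64 (271.5 ± 29.5) and was likewise alone. LOXL3 also had 3 shared regions upstream of its start, at positions -10364 to -5006 bp, with means of 125.6 to 146.2. In the annotation of GRCh38.p14 HTRA2 and DOK1 overlap LOXL3, and AUP1 and M1AP lie within the flanks, so peaks in that window cannot be assigned to LOXL3 by position alone.

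LOX and LOXL4 had H3K4ox peaks upstream and no peak in the gene. At LOX the peaks scored 67.52 in replicate 1 and 55.32 in replicate 2 (mean 61.42 ± 8.63, SD, n = 2), at positions -2157 to -1226 bp from the start. At LOXL4 the better of 2 shared regions scored 68.93 and 116.3 (92.62 ± 33.5), at positions -6441 to -5725 bp from the start. The second scored 56.43 and 50.03, the last value next to the list minimum. The list medians were 83.41 and 82.01. All of these values lay below them except the 116.3 of replicate 2 at LOXL4, which was above 69.53% of its list. LOX had the fewest peaks of the 5 windows. In GRCh38.p14 SRFBP1 overlaps LOX and R3HCC1L lies within a LOXL4 flank, so position alone does not assign these peaks to LOX or LOXL4.

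At the starts of the 5 genes the lists were nearly empty. Within 1 kb of a start, H2A.Z was listed at 1 of 5 genes, LOXL1, and it is listed in 3.55% of all 2 kb tiles of the genome. That LOXL1 peak was singled out by its score beforehand, so nothing is read from this count. The tiles cover the whole genome span and are not limited to gene starts. H3K4ox was at 0 of 5 starts in both replicates, with tile shares of 22.2% and 21.5%. RUVBL2 was at 0 of 5, with a tile share of 10.3%, shared H3K4ox regions at 0 of 5 (16.6%) and joint sites at 0 of 5 (1.45%). With 5 starts, a count of 0 at these shares cannot be told from the background. The H3K4ox peaks nearest to a start were a replicate 1 peak of 52.35 at 1164 bp upstream of LOXL2, which replicate 2 did not meet, and the LOX peaks.

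The width of the flanks decided which neighbouring peaks were left out. Just outside, 13.0 to 13.1 kb past the 3′ end of LOX, H3K4ox scored 382.52 and 393.34 and RUVBL2 550.56, which is higher than any RUVBL2 peak inside the 5 windows. Past the 3′ end of LOXL4, at 16.7 to 18.3 kb, H3K4ox scored 92.29 and 302.85, RUVBL2 311.82 and H2A.Z 58.95. At the edge, the outermost H3K4ox peaks were those of LOXL3 centred at -10.03 and -9.93 kb from the start, with scores of 125.17 and 126.11. Both crossed the end of the flank and were counted by partial overlap. Past LOX, the H3K4ox peaks of both replicates and the RUVBL2 peak were thus in the top 10% of their lists. Past LOXL4 this held for H3K4ox replicate 2 and RUVBL2. There the nearest replicate 1 peak was close to its list median of 83.41, and H2A.Z was below its median of 66.67. These peaks lie within 20 kb of LOX and LOXL4, beyond the windows that define the family's peaks.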

How the data were processed

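Chromatin of MDA-MB-231 cells was immunoprecipitated for H3K4ox, H2A.Z and RUVBL2, per the labels. The deposited peak lists, 1 per library and not pooled, give each peak's position and a score written by the authors' caller, named MACS in the peak names, per the file headers. No source used here gives its version, its settings or the scale of the score. The header word multilocus is not explained. Bowtie, TopHat and the build hg19 appear in the submitters' processing notes. Read depth is unknown.

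Groups followed the antibody in the labels. Peaks overlapped when they shared at least 1 bp. A shared region merged overlapping H3K4ox peaks and held at least 1 peak of each replicate. Densities and tiles used the 3010 Mb between the outermost peaks of each chromosome. Strands came from the RefSeq promoter table, and for LOXL2 from general knowledge. Overlaps were tested on simulated intervals (Python 3.11.15, numpy 2.4.6, pandas 2.3.3, scipy 1.17.1, matplotlib 3.10.9). The members and lists were chosen with earlier results of these data known. Singly named peaks were the best of each list in a gene, those within 1 kb of a start and joint sites; others were named after their values were seen, as were the top 10% rule, the 100 kb tiles and the motifs chosen. A list of cross-linking pathway genes was not analysed, since it needs hg19 annotation. Alternatives changed the flanks, the overlap rule, the score minimum, the start window, the replicate used and the ranking.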

Additional observations from a re-analysis of the deposited data

How the results depend on the processing

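Of 40 alternatives, 26 left the value within 1.5 times or at the same rank and 14 moved it. Counts of H3K4ox peaks followed the flank: without flanks replicate 1 had 24 and replicate 2 had 18, and with 20 kb replicate 2 had 47, against 38 and 30 with 10 kb. Shared regions numbered 12 without flanks and 31 with 20 kb, against 20, and joint sites numbered 2 with 20 kb, against 1. With only the upper 50% of each list by score, 14 and 12 H3K4ox peaks, 4 RUVBL2 peaks and 8 shared regions remained. The H2A.Z count was 15 without flanks, 19 with 20 kb and 13 in the upper 50%. Within 2 kb of a start, H3K4ox was listed at 2 genes in replicate 1 and at 1 in replicate 2. The LOXL1 peak ranked 8 by score per bp of width and 1 among H2A.Z peaks that met no RUVBL2 peak, against 5. Without the LOXL1 start peak, a choice made after seeing the data, 6 of 14 H2A.Z peaks were in the top 10% and 13 of 14 met no other list. Joint sites numbered 1 without either H3K4ox replicate in turn. No paired analysis was possible because no result comes from a test and the replicate numbers occur in H3K4ox alone. Peaks of H2A.Z and of RUVBL2 come from a single library and have no replicate check. Read depth is unknown, so a missing peak says only that none was listed.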
